A study of Mus musculus with 18 samples.

Results

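The 10 genes described here encode heat shock chaperones, the proteins that fold, refold and hand on other proteins. They were taken by symbol and are Hspa8, Hspa5, Hspa1a, Hspa1b, Hsp90aa1, Hsp90ab1, Hspd1, Hsph1, Dnaja1 and Dnajb1, 10 of the 30905 genes in the count matrices. They were measured by single-nucleus RNA sequencing of 9 Kun Ming mice, an outbred stock, in the hippocampus (Hip) and the prefrontal cortex (PFC), with all animals taken at 8 weeks of age. Germ-free (GF) mice were raised in isolators with no microbes, specific pathogen free (SPF) mice were controls with a flora, and CGF mice were GF animals that were co-housed with SPF mice for 4 weeks. Each group had 3 mice and each mouse gave 1 library per region, so that there were 18 libraries. The labels name no transgene or drug treatment, and the mouse numbers in the labels (GF 5 to 7, SPF 30 to 32, CGF 17 to 19) name the animals below. In every list of 3 values the mice stand in the order of these numbers, and gene positions are those of GRCm38.

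HSP70 proteins bind exposed stretches of unfolded proteins and release them in a cycle driven by ATP. J-domain proteins such as Dnaja1 and Dnajb1 bring clients to HSP70 and speed up its ATP hydrolysis, and HSP110 proteins such as Hsph1 exchange the spent nucleotide. HSP90 acts later, on kinases, receptors and other clients that are nearly folded. Of the HSP70 members, Hspa8 is the constitutive cytosolic form, Hspa5 (BiP) is the form of the endoplasmic reticulum (ER), and Hspa1a and Hspa1b are the forms induced by heat and other stress. Hsp90aa1 is the more inducible and Hsp90ab1 the more constitutive cytosolic HSP90. Hspd1 is the mitochondrial HSP60 chaperonin. Heat shock factor 1 switches many of these genes on through heat shock elements in their promoters, whereas Hspa5 is best known as a target of the unfolded protein response, which acts through ER stress elements.

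Promoter sequences were read for the members because their levels moved in different directions between the regions, as described further on. RefSeq entries (GRCm38.p6) were found for 7 of the 10 members. Hspa8, Hsp90aa1 and Hsp90ab1 had no entry in the table. A heat shock element (GAANNTTC or TTCNNGAA, searched on both strands, which for these palindromic motifs give the same matches) occurred within 250 bases before a start of 5 members, in 6 of the 12 promoters listed for the 7 members, and in 12.8% of 32851 promoters of that length. An ER stress element (CCAAT, 9 bases and CCACG, searched on both strands) occurred in Hspa5 and in 0.113% of the promoters. The 6 sequences below are the 150 bases before the start of each member that held a match, with the matched bases in capitals. The Hspa1a and Hspa1b promoters differed at 3 of the 250 bases. A match describes the letters only. The starts are those of RefSeq, and for Hspa5, Hspd1, Hsph1 and Dnaja1 they lie within the gene bounds given further on, which come from another annotation.
Hspa5, promoter at chr2:34771940-34772089, plus strand: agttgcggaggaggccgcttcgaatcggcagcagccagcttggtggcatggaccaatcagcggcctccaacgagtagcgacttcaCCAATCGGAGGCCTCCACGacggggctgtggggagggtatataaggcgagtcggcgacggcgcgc
Hspa1a, promoter at chr17:34972157-34972306, minus strand: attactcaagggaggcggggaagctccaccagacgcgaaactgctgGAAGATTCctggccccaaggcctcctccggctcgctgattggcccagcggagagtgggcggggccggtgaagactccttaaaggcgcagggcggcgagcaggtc
Hspa1b, promoter at chr17:34959239-34959388, minus strand: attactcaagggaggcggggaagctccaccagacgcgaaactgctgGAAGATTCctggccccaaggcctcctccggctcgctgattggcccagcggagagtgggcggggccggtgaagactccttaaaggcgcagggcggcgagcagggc
Hspd1, promoter at chr1:55087933-55088082, minus strand: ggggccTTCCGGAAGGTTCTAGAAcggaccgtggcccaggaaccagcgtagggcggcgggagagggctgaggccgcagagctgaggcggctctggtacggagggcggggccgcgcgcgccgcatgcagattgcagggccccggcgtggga
Hsph1, promoter at chr5:149636337-149636486, minus strand: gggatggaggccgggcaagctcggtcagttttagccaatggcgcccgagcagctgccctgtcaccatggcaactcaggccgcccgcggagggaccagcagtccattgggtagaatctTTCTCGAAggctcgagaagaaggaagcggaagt
Dnaja1, promoter at chr4:40722318-40722467, plus strand: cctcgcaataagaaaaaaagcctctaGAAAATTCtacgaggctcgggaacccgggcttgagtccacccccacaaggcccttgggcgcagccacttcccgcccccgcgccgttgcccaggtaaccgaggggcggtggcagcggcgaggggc
The match in Hspa5 began 65 bases before the start, and those in Hspa1a and Hspa1b both began 104 bases before it. Hspd1 held 3 overlapping matches at 144, 139 and 134 bases, Hsph1 held 1 at 33 bases, its second promoter in the table held 1 at 54 bases, and Dnaja1 held 1 at 124 bases. The Hsph1 promoters overlap and their matches are the same site, which counts for both in the 6 promoters. No match was found in either Dnajb1 promoter or in the other Hspd1 and Dnaja1 promoters.

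The libraries differed in ways that moved with the groups. Total UMIs (unique molecular identifiers, each 1 counted RNA molecule) were 49067853 to 63217083 per library in Hip. In PFC they were 59126586 to 71463928 in GF and 20336250 to 26949210 in SPF and CGF, so that depth and group cannot be told apart there. The mitochondrial share of UMIs was higher in GF than in SPF in Hip (0.645% to 1.10% against 0.128% to 0.471%) and lower in PFC (0.359% to 0.594% against 1.66% to 3.22%). In PFC, 85.5% of GF excitatory nuclei fell in 4 clusters that were over 80% GF, and 93.9% of SPF excitatory nuclei fell in 5 clusters that were under 20% GF. Among the 5 was a cluster of 3940 nuclei (15.5% GF) with Tmsb4x, Ubb and Fth1 among its leading genes. A Hip cluster of 2574 nuclei (56.7% GF) with these genes among its leading genes had few UMIs and was left unnamed. In PFC astrocytes 85.6% of SPF and 32.9% of GF nuclei fell in 1 cluster that was under 20% GF, and in PFC oligodendrocytes 77.3% of SPF and 17.7% of GF nuclei did. In Hip no cluster of the 6 types described below was of either kind, but some lay near the 20% limit. A Hip oligodendrocyte cluster of 3267 nuclei was 20.4% GF, against 39.1% in the other. A Hip astrocyte cluster of 1484 nuclei was 21.3% GF, against 28.3% in the other. In PFC a microglia cluster of 928 nuclei was 21.1% GF with 26.6% likely doublets, and the other was 61.9% GF. UMIs per nucleus differed as well, and the median in PFC excitatory neurons was 3879.5 to 4134.5 in SPF and 9124.5 to 9822.5 in GF mice. In Hip it was lower in GF than in SPF, at 6033 to 6793 against 8645 to 9500 in excitatory neurons and 2186 to 2336.5 against 2746 to 3263 in astrocytes, and of the 6 types only microglia had ranges that overlapped there. The part of depth, mitochondrial share and clustering in the results below was not tested beyond the values given.

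Levels are UMIs of a gene per 1000000 UMIs of that cell type in that library (CPM). They describe RNA in nuclei and whatever RNA came with them. The 6 cell types tested, each with at least 141 nuclei in every library, were excitatory neurons, interneurons, astrocytes, oligodendrocytes, oligodendrocyte precursor cells (OPC) and microglia. A Hip cluster of 210 nuclei led by Bcas1, Tns3, Tcf7l2, Fyn and Chn2 was counted with the OPC, while a PFC cluster of 278 nuclei with these genes among its leading genes was counted with the oligodendrocytes, so these classes did not hold the same cells in the 2 regions. Of the lists of type markers, 5 of 6 interneuron and 5 of 6 astrocyte markers and every oligodendrocyte, OPC and microglia marker were highest in their own type in Hip. Of the 5 excitatory markers, 2 were highest in excitatory neurons in Hip and 4 in PFC. Nrgn, a neuronal signalling protein and one of those markers, had a median of 254.9 CPM in excitatory neurons and 859.5 CPM in microglia of Hip. No excitatory marker was at 0 in a glial type. The summed level of these 5 markers in Hip astrocytes was 1111, 1042 and 1627 CPM in SPF and 1563, 1533 and 1588 CPM in GF. In Hip microglia it was 1738, 1647 and 2414 CPM in SPF and 2251, 2056 and 2326 CPM in GF. In all 4 glial types of Hip, SPF mice 30 and 31 lay below every GF mouse and SPF mouse 32 lay above every GF mouse, and in PFC glia the SPF and GF ranges overlapped. The part of neuronal RNA in the glial levels of the chaperones was not tested.

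Over the 9 mice all 10 members had their highest mean level in a glial type in both regions, and in the 3 SPF mice alone 2 members were highest in a neuron type in PFC. In Hip microglia or oligodendrocytes came first and the 2 neuron types last for every member. Hspa8, for example, had a median over 9 mice of 387 CPM in microglia, 318 in oligodendrocytes, 301 in astrocytes, 209.8 in OPC, 89.8 in interneurons and 86.3 in excitatory neurons. Nrgn had the same glial order as Hspa8 in Hip, as had the other excitatory markers. Whether the glial levels are expression by glia was not tested. In PFC the types lay closer together over the 9 mice, and Hsp90ab1 had medians between 416 and 564 CPM in all 6 types. In PFC of the GF mice alone Hsp90ab1 was well lower in excitatory neurons than in oligodendrocytes, by the values given further on. Of the 100 pairs of types next to each other in these orders, 29 differed (exact two-sided permutation test with sign flips over 9 mice, adjusted over the 100 pairs, smallest possible p = 0.003906). Of these, 24 were in Hip and 5 in PFC, and the other 71 pairs did not pass.

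**Figure D1:**
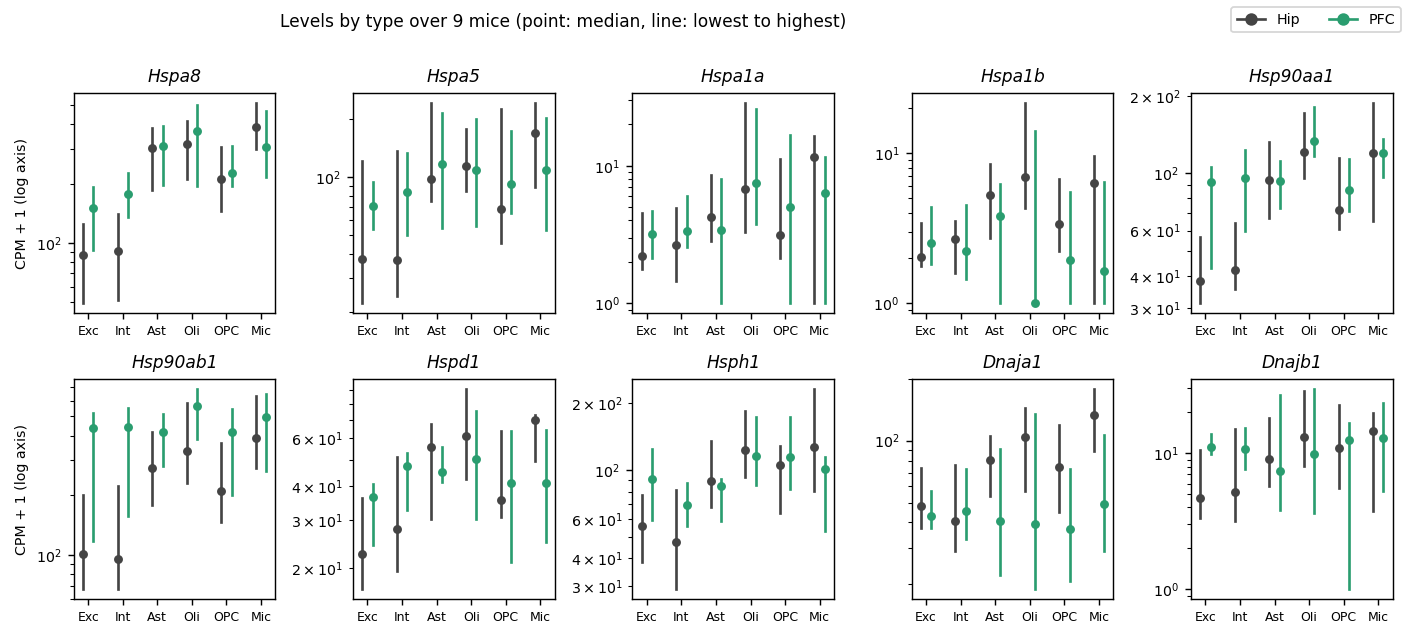
Level of each member by cell type, on a log axis of CPM plus 1, with the median of 9 mice as a point and a line from the lowest to the highest mouse, in Hip (grey) and PFC (green). In Hip the levels of Hspa8, Hsp90aa1 and Hsp90ab1 are lowest in the 2 neuron types, while in PFC the neuron levels lie nearer to those of the glia.

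In Hip every call of a member in GF against SPF mice was higher in GF. Over the 6 types, 54 of the 60 pairs of gene and type passed the filter on low counts, and 27 of them were higher in GF (50.0%), against 20.2% of all pairs of gene and type tested. None of the 54 was lower in GF, against 17% of all pairs. The members were chosen with earlier results of these data known, and a gene counts in up to 6 types of the same mice. These shares therefore describe the members and are no independent test. The filter used all 9 libraries, so a pair could pass it through the GF mice alone. On the SPF and CGF libraries alone 48 pairs passed. With no filter 27 of the 60 pairs were higher and 0 lower. At an unadjusted p under 0.05, 35 of the 54 passed, and DESeq2 also called 0 lower. The share of all pairs at that unadjusted threshold is not given here, so the 35 cannot be set against it. Of the 54 estimates 50 were positive and 4 negative, and the median log2 fold change was 0.52 over the members and 0.01 over all genes. The 27 calls were 6 each for Hspa5 and Hsp90ab1, 5 for Dnaja1, 3 each for Hspd1 and Dnajb1, 2 for Hspa1a, and 1 each for Hspa8 and Hspa1b. Hsp90aa1 and Hsph1 had none. The count was 41 without SPF mouse 32, which had the highest SPF value of every member in Hip excitatory neurons. That mouse also had the highest mitochondrial share of the SPF mice in Hip, 0.471% against 0.216% and 0.128% in mice 30 and 31. Among the CGF mice in Hip, mouse 19 had the highest share, 0.218% against 0.077% and 0.11% in mice 17 and 18. Whether the chaperone levels follow that share within a group was not tested. The count of higher members was 15 without SPF mouse 30, 15 without SPF mouse 31, 16 without GF mouse 7, and 10 when the trend of fold change with gene length and GC content was removed. The share of all pairs in these other fits, and with no filter, is not given here. Whether the members exceed it there was not tested.

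In PFC the members went both ways. Of 48 pairs tested, 15 were higher in GF (31.3%) and 16 lower (33.3%), against 25.0% and 24.6% of all pairs. Of the 16 lower calls, 12 were in the 2 neuron types and 4 were Hsp90ab1 in the glia. Of the 15 higher calls, 12 were Hspa5 and Dnaja1, each in all 6 types. The others were Hspd1 and Hsph1 in oligodendrocytes and Dnajb1 in astrocytes. With the summed UMIs of every library thinned to the smallest total of its type, 12 were higher and 13 lower of 45 tested. Thinning left the number of nuclei and the differences in UMIs per nucleus as they were. Without SPF mouse 32 the higher calls fell to 9. On the SPF and CGF libraries alone 44 pairs passed the filter, and with no filter 17 of 60 were higher and 16 lower. The share of all pairs in these other fits is not given here.

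**Figure D2:**
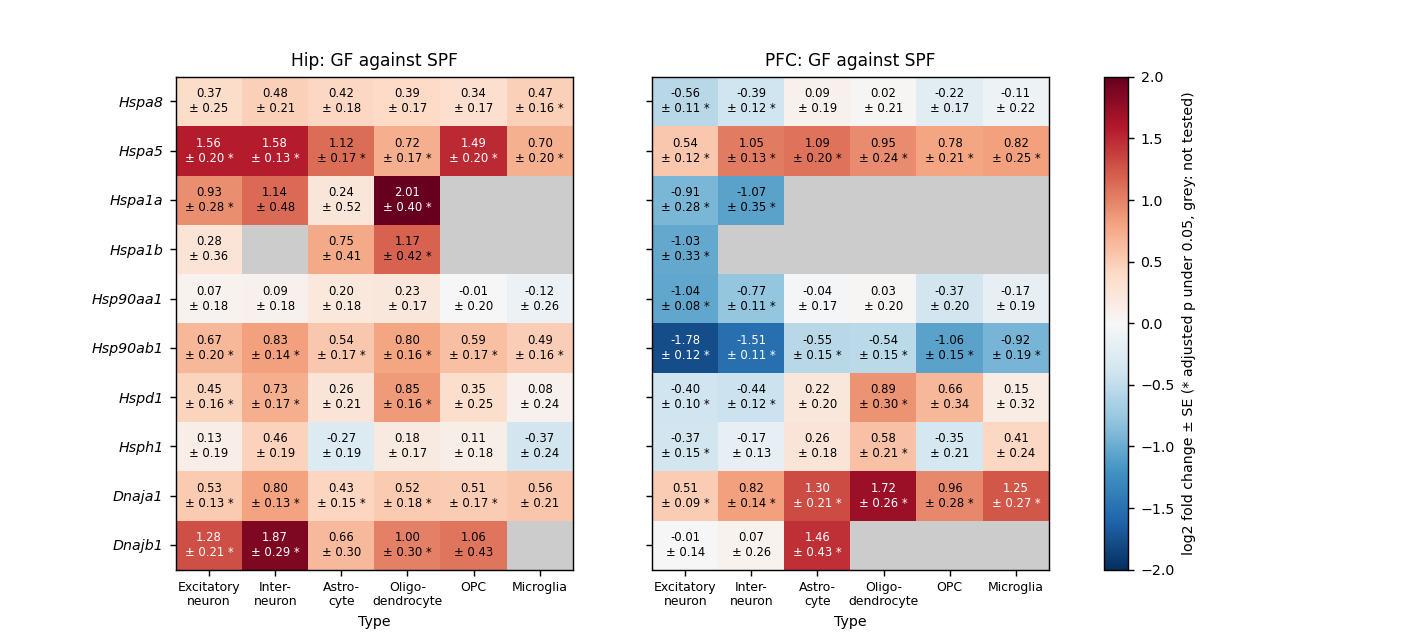
Log2 fold change of GF against SPF with its standard error for each member (rows) and cell type (columns), in Hip (left) and PFC (right), with red for higher and blue for lower in GF, a star for an adjusted p under 0.05 and grey for pairs that were not tested. Hspa5 and Dnaja1 are red in all types of both regions, and Hsp90ab1 is red in Hip and blue in PFC.

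Hspa5 (ENSMUSG00000026864, chr2:34771970-34777547 on the plus strand), the ER form of HSP70, was higher in GF than in SPF in all 6 types of both regions. In Hip excitatory neurons the SPF mice had 30.4, 28.1 and 36.5 CPM, the CGF mice 21.1, 24.7 and 36.7 CPM and the GF mice 107.5, 86.0 and 120.2 CPM. The GF values lay above every SPF and CGF value. The log2 fold change of GF against SPF was 1.56 ± 0.20 (SE, adjusted p = 0.000214). In Hip interneurons it was 1.58 ± 0.13 (SE, adjusted p = 5.16e-06), and in OPC 1.49 ± 0.20 (SE, adjusted p = 2.32e-05). The changes were smaller in oligodendrocytes, at 0.72 ± 0.17, and in microglia, at 0.70 ± 0.20. With the length and GC trend removed these last 2 were 0.16 and 0.09 and no longer passed, and the microglia call was also lost without GF mouse 7 (0.62).

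In PFC excitatory neurons Hspa5 stood at 66.4, 69.8 and 52.7 CPM in SPF and 92.7, 69.3 and 85.3 CPM in GF. The lowest GF mouse fell within the SPF range, and the fold change was 0.54 ± 0.12 (SE, adjusted p = 0.00207). In PFC astrocytes the SPF mice had 120.3, 106 and 53.5 CPM and the GF mice 214, 169 and 180.0 CPM, with no overlap. That difference was 1.09 ± 0.20 (SE, adjusted p = 9.73e-05). The oligodendrocyte and OPC calls were lost without SPF mouse 32 (0.66 and 0.60), and the microglia call without GF mouse 5 (0.65) or SPF mouse 31 (0.60) and when each nucleus was typed by its own markers (0.39). The difference between GF and SPF was smaller in PFC than in Hip in excitatory neurons and interneurons, by -0.97 ± 0.24 (SE, adjusted p = 0.00258) and -0.53 ± 0.19 (SE, adjusted p = 0.0272) on the log2 scale. The interneuron difference was lost with the length and GC trend removed (-0.17), with nuclei typed by their own markers (-0.34), without likely doublets (-0.43) and without GF mouse 7 (-0.38) or SPF mouse 30 (-0.48) or 31 (-0.43).

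Hspa8 (ENSMUSG00000015656, chr9:40800984-40810087 on the plus strand), the constitutive cytosolic HSP70, was called in 1 type in Hip and in both neuron types in PFC. In Hip excitatory neurons the SPF mice had 65.3, 65.0 and 124 CPM and the GF mice 124, 121 and 121 CPM. SPF mouse 32 matched the GF mice and the other 2 SPF mice lay well below them, so the groups overlapped. The fold change was 0.37 ± 0.25 (SE, adjusted p = 0.254), and it rose to 0.70 and passed without SPF mouse 32. Without that mouse interneurons (0.80), astrocytes (0.66), oligodendrocytes (0.63) and OPC (0.60) also passed. Astrocytes passed too with no filter (0.41), with only the 6 libraries compared (0.44) and without CGF mouse 19 (0.43), and oligodendrocytes after thinning (0.44). In Hip interneurons the SPF mice had 77.1, 62.5 and 126 CPM and the GF mice 132, 138 and 132 CPM, with no overlap. That difference was 0.48 ± 0.21 (SE, adjusted p = 0.0762), and it passed with library totals only (0.61), with no filter (0.47) and without CGF mouse 19 (0.48). Microglia gave the 1 call in Hip, 0.47 ± 0.16 (SE, adjusted p = 0.0294), which was lost without any one of the GF mice, without SPF mouse 30 (0.31) or 31 (0.46), and without CGF mouse 17 or 18 (0.43 each). It was 0.05 with the length and GC trend removed, and was also lost with DESeq2 (0.45), with no filter (0.39) and when each nucleus was typed by its own markers (0.45).

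In PFC Hspa8 was lower in GF neurons. Excitatory neurons had 146, 190.1 and 149.5 CPM in SPF and 99.0, 91.0 and 107.7 CPM in GF, with every GF mouse below every SPF mouse. The fold change was -0.56 ± 0.11 (SE, adjusted p = 0.00087). In interneurons it was -0.39 ± 0.12 (SE, adjusted p = 0.011), which was lost without SPF mouse 31 (-0.30) or 32 (-0.34) and when each nucleus was typed by its own markers (-0.34). In PFC glia the estimates lay between -0.22 and 0.09 and none passed.

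Hspa1a (ENSMUSG00000091971, chr17:34969190-34972156 on the minus strand) and Hspa1b (ENSMUSG00000090877, chr17:34956436-34959238 on the minus strand) are neighbours and are nearly identical in sequence. Reads could be split between them or dropped by the counting, so each value is uncertain. Hspa1a in Hip oligodendrocytes had 2.30, 5.67 and 8.68 CPM in SPF, 5.82, 3.32 and 5.06 CPM in CGF and 11.9, 27.1 and 27.8 CPM in GF. Every GF mouse exceeded every SPF and CGF mouse, by 2.01 ± 0.40 (SE, adjusted p = 0.000926) against SPF, the largest member fold change in Hip. Hspa1b in the same cells was at 4.03, 6.37 and 7.38 CPM in SPF and 5.96, 20.7 and 10.9 CPM in GF. GF mouse 5 fell within the SPF range and the call, 1.17 ± 0.42 (SE, adjusted p = 0.037), was lost without SPF mouse 30 (0.97) or 31 (1.19), GF mouse 6 (0.54) or 7 (1.25), or CGF mouse 18 (1.16). It was also lost with the length and GC trend removed (0.47), with DESeq2 (1.16) and with library totals only (1.09).

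In excitatory neurons the inducible pair stood at a few CPM or less. Hspa1a in Hip had 1.01, 1.12 and 2.105 CPM in SPF and 2.43, 3.54 and 3.08 CPM in GF, a fold change of 0.93 ± 0.28 (SE, adjusted p = 0.0221). In PFC it had 1.84, 3.25 and 3.69 CPM in SPF and 1.12, 1.35 and 1.79 CPM in GF, a fold change of -0.91 ± 0.28 (SE, adjusted p = 0.0132). The direction in GF was thus up in Hip and down in PFC, with no overlap of the groups in either. The Hip call was lost without GF mouse 6 or 7 or SPF mouse 30 or 31 (0.74 to 0.91), and fell to 0.32 with the length and GC trend removed. The PFC call was lost without GF mouse 5 (-0.76) or SPF mouse 32 (-0.68), after thinning (-0.74) and with the length and GC trend removed (-0.58). Hspa1b in PFC excitatory neurons changed by -1.03 ± 0.33 (SE, adjusted p = 0.0174), and this call too was lost after thinning (-0.90), with the length and GC trend removed (-0.70) and without GF mouse 5 (-0.88), GF mouse 7 (-0.89) or SPF mouse 31 (-0.69). In PFC oligodendrocytes Hspa1b was at 0 UMIs in all SPF and CGF libraries and at 1.04, 13.1 and 10.2 CPM in GF, too few UMIs to be tested.

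Hsp90ab1 (ENSMUSG00000023944, chr17:45567775-45573271 on the minus strand), the constitutive HSP90, went in opposite directions in the 2 regions in all 6 types. In Hip excitatory neurons the SPF mice had 85.4, 86.3 and 145 CPM, the CGF mice 65.9, 76.3 and 100.5 CPM and the GF mice 177, 199.5 and 186 CPM. In PFC the same type had 471, 518 and 454 CPM in SPF, 383, 490.3 and 436 CPM in CGF and 132, 116 and 131 CPM in GF. The GF mice did not overlap the others in either region, and lay on top in Hip and at the bottom in PFC. The fold changes were 0.67 ± 0.20 (SE, adjusted p = 0.0187) in Hip and -1.78 ± 0.12 (SE, adjusted p = 1.47e-07) in PFC. Their difference was -2.39 ± 0.24 (SE, adjusted p = 2.46e-07), and it passed in all 6 types, in every alternative fit and without each mouse in turn.

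The glia followed the same pattern for Hsp90ab1, with differences nearer to 0 than those of the neurons in PFC. Oligodendrocytes had 307, 262 and 439.5 CPM in SPF and 525, 583 and 552 CPM in GF in Hip, and 564, 657 and 689 CPM in SPF and 381, 450.0 and 452 CPM in GF in PFC. The differences were 0.80 ± 0.16 (SE, adjusted p = 0.00122) and -0.54 ± 0.15 (SE, adjusted p = 0.00476). In Hip microglia the lowest GF mouse fell below the highest SPF mouse and the fold change was 0.49 ± 0.16 (SE, adjusted p = 0.0282). The rise in Hip was the less stable side. With the length and GC trend removed it did not pass in any type, at 0.26 in excitatory neurons, 0.30 in interneurons, 0.23 in oligodendrocytes, 0.02 in OPC, -0.001 in astrocytes and -0.16 in microglia. The Hip call in excitatory neurons was lost without GF mouse 6 (0.64), SPF mouse 30 (0.55) or SPF mouse 31 (0.55), and those in astrocytes, OPC and microglia without one or more of GF mice 5, 6 and 7, SPF mice 30 and 31 and CGF mice 17 and 18 (0.38 to 0.53). Thinning also ended the astrocyte call (0.48), typing by own markers the OPC call (0.48), and DESeq2 (0.47) and no filter (0.41) the microglia call. The PFC calls held without each mouse, and the microglia call was lost when each nucleus was typed by its own markers (-0.46).

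Hsp90aa1 (ENSMUSG00000021270, chr12:110690605-110702728 on the minus strand), the inducible HSP90, did not pass in any type in Hip, where its estimates lay between -0.12 and 0.23. Excitatory neurons there had 33.8, 30.3 and 55.6 CPM in SPF and 44.3, 46.5 and 49.4 CPM in GF, with SPF mouse 32 above all GF mice. Without that mouse the fold change was 0.34 in excitatory neurons, 0.46 in astrocytes and 0.43 in oligodendrocytes, and these passed. In PFC excitatory neurons it had 101, 105 and 91.8 CPM in SPF and 42.4, 41.8 and 45.9 CPM in GF, a gap with no overlap. The fold change was -1.04 ± 0.08 (SE, adjusted p = 3.42e-07), and in PFC interneurons it was -0.77 ± 0.11 (SE, adjusted p = 8.1e-06). Both calls held in every alternative and without each mouse, and no PFC glial type passed.

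**Figure D3:**
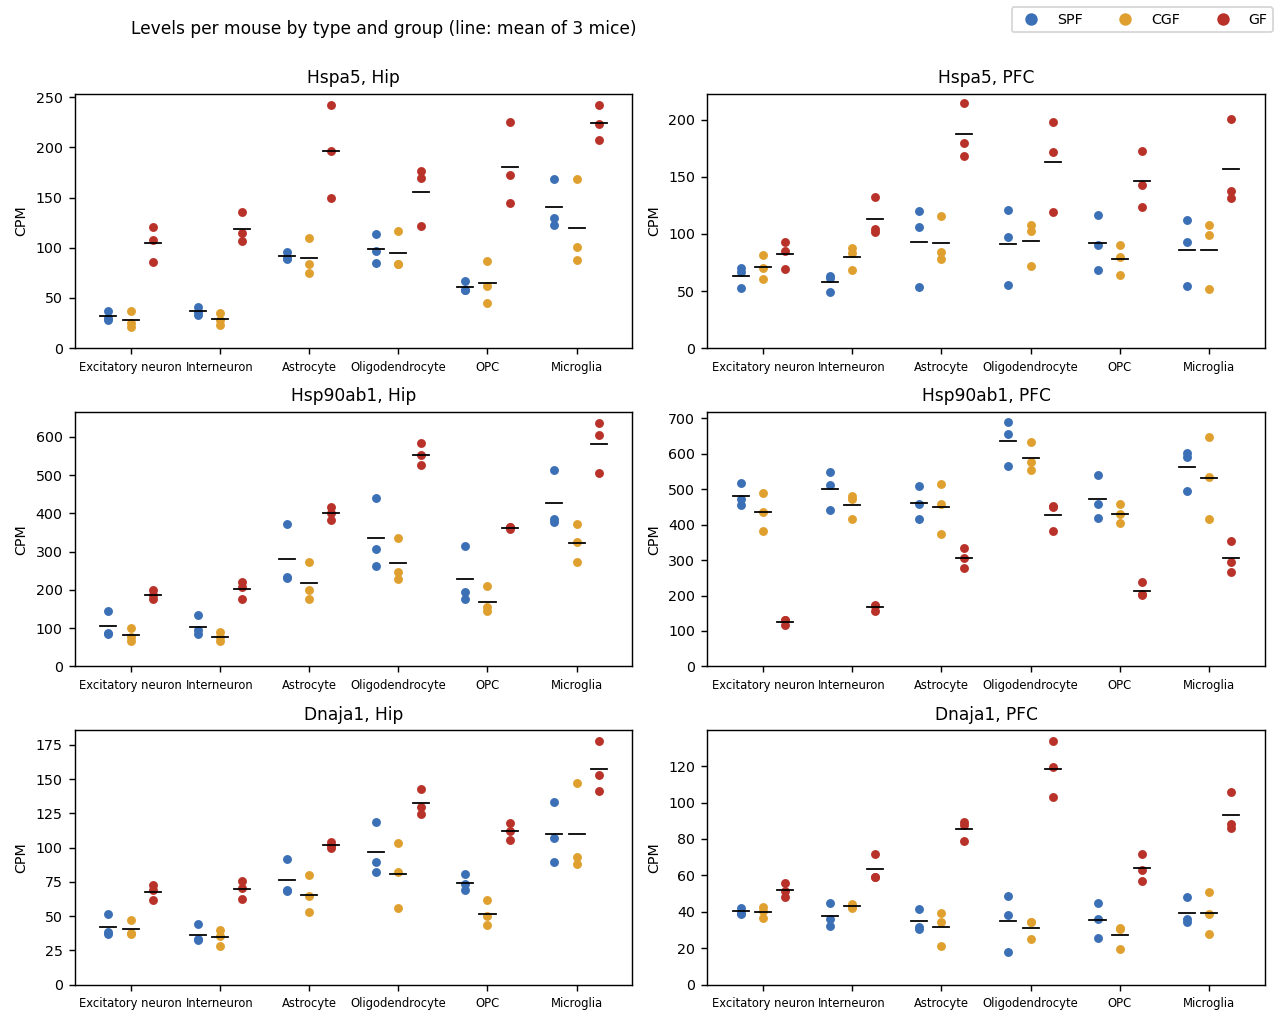
CPM of Hspa5, Hsp90ab1 and Dnaja1 per mouse in each cell type of Hip (left) and PFC (right), with SPF in blue, CGF in orange, GF in red and a line at the mean of 3 mice. The Hsp90ab1 values of the GF mice are above the SPF means in all types of Hip and below them in all types of PFC, while the Hspa5 and Dnaja1 values of the GF mice are above the SPF means in both regions.

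Hspd1 (ENSMUSG00000025980, chr1:55077835-55088243 on the minus strand), the mitochondrial HSP60, was higher in GF in Hip neurons and oligodendrocytes. In Hip oligodendrocytes the SPF mice had 41.5, 53.1 and 59.9 CPM and the GF mice 85.1, 89.3 and 90.2 CPM, with no overlap. The fold change was 0.85 ± 0.16 (SE, adjusted p = 0.00077). In interneurons it was 0.73 ± 0.17 (SE, adjusted p = 0.00402), which fell to 0.44 and did not pass with the length and GC trend removed. The excitatory neuron value, 0.45 ± 0.16 (SE, adjusted p = 0.0433), was near the threshold and was lost without GF mouse 6 or 7, SPF mouse 30 or 31 or CGF mouse 18 (0.34 to 0.45), with the length and GC trend removed (0.24), with DESeq2 size factors (0.41) and with nuclei typed by their own markers (0.48).

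In PFC Hspd1 was lower in GF neurons and higher in GF oligodendrocytes. Excitatory neurons had 37.4, 39.1 and 33.5 CPM in SPF and 23.2, 24.2 and 27.6 CPM in GF, a fold change of -0.40 ± 0.10 (SE, adjusted p = 0.00352). Interneurons changed by -0.44 ± 0.12 (SE, adjusted p = 0.0059). Oligodendrocytes changed by 0.89 ± 0.30 (SE, adjusted p = 0.0193), and that call was lost without GF mouse 6 (0.81), SPF mouse 31 (0.75) or SPF mouse 32 (0.80), after thinning (0.85) and with DESeq2 (0.89). The difference of the GF effect between the regions passed in both neuron types, at -0.79 ± 0.19 (SE, adjusted p = 0.002) and -1.17 ± 0.22 (SE, adjusted p = 0.000131). PFC OPC did not pass, though every GF mouse lay above every SPF mouse. They came to pass with nuclei typed by their own markers (1.79) and without likely doublets (2.2). The difference between the regions in OPC also passed without likely doublets (1.85).

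Hsph1 (ENSMUSG00000029657, chr5:149614287-149636376 on the minus strand), the HSP110 exchange factor, had no call in Hip. Its Hip interneurons were nearest, with 40.0, 40.4 and 65.5 CPM in SPF and 62.5, 80.3 and 76.5 CPM in GF and a fold change of 0.46 ± 0.19 (SE, adjusted p = 0.059). Without SPF mouse 32, the one SPF mouse within the GF range, it was 0.72 and passed. It also passed without GF mouse 5 (0.56) or CGF mouse 19 (0.46), with library totals only (0.59), with no filter (0.45) and with only the 6 libraries compared (0.45). In PFC excitatory neurons it had 90.3, 113 and 94.9 CPM in SPF and 58.6, 74.2 and 75.2 CPM in GF, a fold change of -0.37 ± 0.15 (SE, adjusted p = 0.0413). PFC oligodendrocytes moved the other way, by 0.58 ± 0.21 (SE, adjusted p = 0.0279). Both calls were lost without SPF mouse 31 (-0.28 and 0.43) or SPF mouse 32 (-0.38 and 0.62). The difference between the regions passed in interneurons, -0.64 ± 0.25 (SE, adjusted p = 0.039). It was lost without any one of the GF mice (-0.61, -0.61 and -0.67), without SPF mouse 30 (-0.61) or 31 (-0.44) or CGF mouse 17 (-0.63), without likely doublets (-0.57) and with nuclei typed by their own markers (-0.54). With both regions of a mouse kept as a block the difference also passed in excitatory neurons (-0.48) and microglia (0.93). The excitatory neuron call in PFC was also lost without GF mouse 5 (-0.26), and the oligodendrocyte call without GF mouse 6 (0.53) or 7 (0.45), with DESeq2 (0.58) and with the length and GC trend removed (0.48).

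Dnaja1 (ENSMUSG00000028410, chr4:40722150-40737149 on the plus strand), a J-domain partner of HSP70, was higher in GF in 5 of 6 types in Hip and in all 6 in PFC. In Hip excitatory neurons the SPF mice had 36.7, 38.1 and 51.4 CPM, the CGF mice 37.8, 37.0 and 47.0 CPM and the GF mice 61.8, 72.6 and 69.4 CPM. In PFC the values were 39.6, 42.2 and 39.0 CPM in SPF, 40.3, 36.8 and 42.6 CPM in CGF and 51.3, 48.2 and 55.9 CPM in GF. The GF mice lay above all others in both regions. The fold changes against SPF were 0.53 ± 0.13 (SE, adjusted p = 0.00674) and 0.51 ± 0.09 (SE, adjusted p = 0.000253).

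The largest Dnaja1 difference was in PFC oligodendrocytes, where the SPF mice had 17.9, 48.8 and 38.4 CPM and the GF mice 103, 134 and 119 CPM. That was 1.72 ± 0.26 (SE, adjusted p = 9.02e-06). In Hip oligodendrocytes the change was 0.52 ± 0.18 (SE, adjusted p = 0.0285), and the difference between the regions was 1.24 ± 0.34 (SE, adjusted p = 0.01). In astrocytes it was 0.82 ± 0.26 (SE, adjusted p = 0.0219). These were the only 2 of the 22 members' differences between regions that were positive, and neither held in every alternative. The oligodendrocyte value was lost after thinning (1.3), with nuclei typed by their own markers (0.80), with coarser clusters (0.96) and without SPF mouse 30 (1.03). The astrocyte value was lost after thinning (0.90), with the length and GC trend removed (0.70) and without GF mouse 5 (0.78), GF mouse 7 (0.82), SPF mouse 30 (0.79) or SPF mouse 31 (0.80). The Hip astrocyte, oligodendrocyte and OPC calls were each lost without GF mouse 6 or 7 or SPF mouse 30 or 31 (0.37 to 0.52), the astrocyte call also without GF mouse 5 (0.46) or CGF mouse 18 (0.43), and the PFC OPC call without SPF mouse 32 (0.76). The same Hip calls were lost with the length and GC trend removed (0.28 in astrocytes, 0.32 in oligodendrocytes and 0.31 in OPC) and with DESeq2 (0.43, 0.51 and 0.52). The PFC microglia call was lost after thinning (1.04).

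Dnajb1 (ENSMUSG00000005483, chr8:83608193-83612653 on the plus strand), the J-domain protein that is itself heat-inducible, was higher in GF in Hip excitatory neurons, interneurons and oligodendrocytes. Hip interneurons had 2.27, 2.43 and 4.28 CPM in SPF, 2.16, 2.33 and 4.17 CPM in CGF and 9.72, 14.2 and 12.0 CPM in GF. The GF mice stood far above both other groups, by 1.87 ± 0.29 (SE, adjusted p = 0.000223) against SPF. Excitatory neurons changed by 1.28 ± 0.21 (SE, adjusted p = 0.000917). Oligodendrocytes changed by 1.0 ± 0.30 (SE, adjusted p = 0.0149), a call that was lost without GF mouse 7 (0.83) or SPF mouse 30 or 31 (0.84 each), and fell to 0.37 with the length and GC trend removed. In PFC neurons Dnajb1 did not pass, at -0.01 ± 0.14 in excitatory neurons and 0.07 ± 0.26 in interneurons. PFC astrocytes changed by 1.46 ± 0.43 (SE, adjusted p = 0.00741), which was lost without GF mouse 7 (1.11) or SPF mouse 32 (1.25) and with coarser clusters (0.82). The difference between the regions passed in excitatory neurons, -1.24 ± 0.26 (SE, adjusted p = 0.000544), and in interneurons, -1.81 ± 0.41 (SE, adjusted p = 0.00105).

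**Figure D4:**
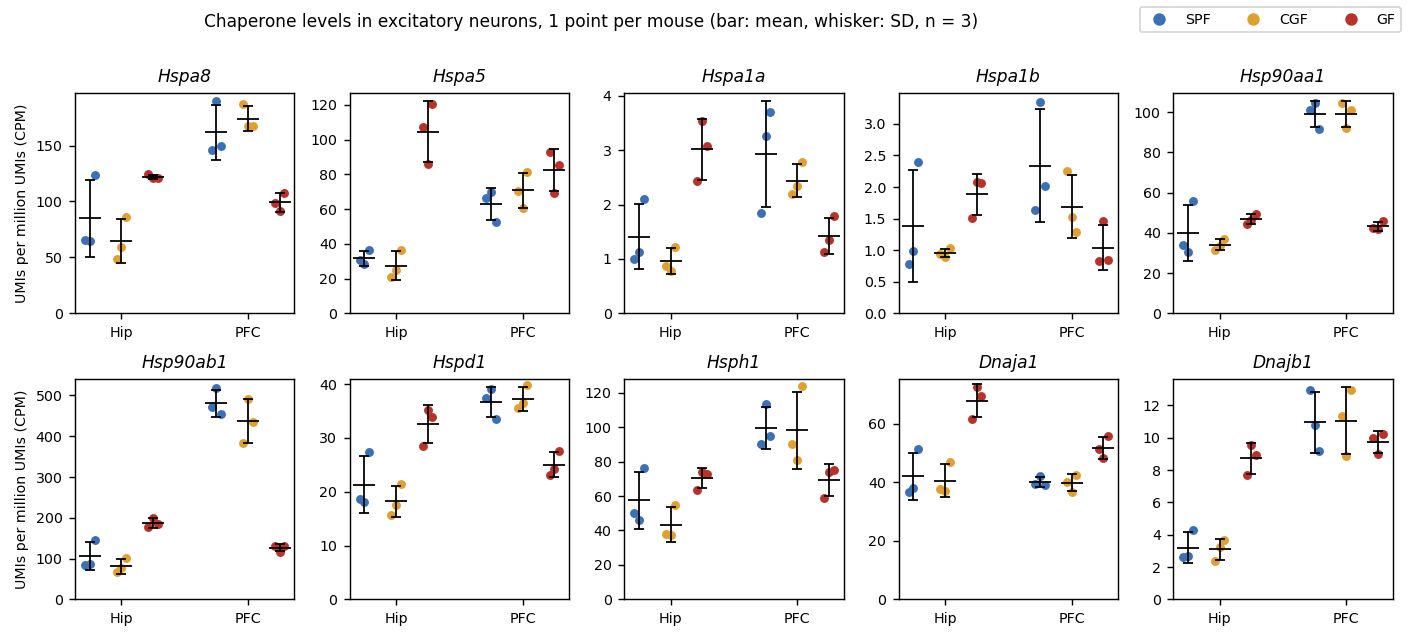
CPM of the 10 members in excitatory neurons, 1 point per mouse with the mean as a bar and the SD as a whisker (n = 3), for SPF (blue), CGF (orange) and GF (red) in Hip and PFC. The SPF and CGF ranges overlap for every member in both regions, and in PFC both lie above GF for Hspa8, Hspa1a, Hsp90aa1, Hsp90ab1, Hspd1 and Hsph1.

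The CGF mice, germ-free until they were co-housed with SPF mice, were compared with SPF to see where colonised animals stood. No member was called in either region (0 of 54 in Hip and 0 of 48 in PFC, edgeR quasi-likelihood test), against 0.350% and 0.256% of all pairs. DESeq2 also called 0 in both. At an unadjusted p under 0.05 there were 5 in Hip and 2 in PFC, and the share of all pairs at that threshold is not given here. In Hip 48 of the 54 estimates were negative, with a median of -0.28. Hsp90ab1 in excitatory neurons differed by -0.34 (95% interval -0.73 to 0.05, adjusted p = 0.447) in Hip and -0.16 (95% interval -0.38 to 0.07, adjusted p = 0.583) in PFC. Hspa5 in excitatory neurons differed by -0.16 (95% interval -0.55 to 0.22, adjusted p = 0.725) in Hip and 0.14 (95% interval -0.10 to 0.38, adjusted p = 0.643) in PFC. The intervals were wide, so the groups were not shown to be alike.

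Against CGF, the GF mice were higher in 39 of 54 member pairs in Hip and lower in 0. Of all 73695 pairs, 15187 were higher and 12884 lower (38.1% in either direction). The member count was 21 with the length and GC trend removed, a setting for which no share of all pairs is given. For Hspa5 in Hip excitatory neurons the fold change was 1.73 ± 0.20 (SE, adjusted p = 0.000113), and for Hsp90ab1 it was 1.01 ± 0.20 (SE, adjusted p = 0.00228). In PFC 14 member pairs were higher and 11 lower of 48. Of all 61686 pairs, 15545 were higher and 15082 lower (49.6% in either direction). Hsp90ab1 in PFC excitatory neurons was lower in GF by -1.62 ± 0.12 (SE, adjusted p = 3.21e-07). This comparison shares the GF mice with the one against SPF, so the 2 do not count as separate evidence.

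In excitatory neurons 8 of the 10 members were higher in PFC than in Hip in SPF, 8 in CGF and 0 in GF mice, where 6233, 6570 and 3387 of the 19404 genes tested were higher. In interneurons 8, 7 and 0 members were higher, where 4083, 4201 and 503 of 14368 genes were. SPF libraries held 55558458 to 63217083 UMIs in Hip and 20336250 to 26949210 in PFC. CGF libraries held 54526815 to 62313617 and 22213863 to 26151503, and GF libraries 49067853 to 56240654 and 59126586 to 71463928. The mitochondrial share was 0.128% to 0.471% in Hip and 1.66% to 3.22% in PFC in SPF mice. In CGF it was 0.077% to 0.218% and 1.28% to 2.24%, and in GF 0.645% to 1.10% and 0.359% to 0.594%. In no group can depth, that share and region be told apart. Over all 6 types the share of members called was near that of all genes in SPF and CGF. In SPF mice 20 member pairs were higher in PFC and 7 lower of 54, where 49.2% of all pairs were called. In CGF mice 19 were higher and 5 lower, where 50.5% were called. In GF mice 0 were higher and 5 lower, where 17.7% were called. At an unadjusted p under 0.05, 14 passed there, and the share of all pairs at that threshold is not given here. Hsp90ab1 in excitatory neurons was higher in PFC by 1.96 ± 0.17 (SE, adjusted p = 1.64e-08) in SPF and 2.16 ± 0.17 (SE, adjusted p = 5.11e-09) in CGF, and stood at -0.43 ± 0.16 (SE, adjusted p = 0.0525) in GF. With both regions of a mouse kept as a block, the GF count was 9. Those that came to pass were Hsp90ab1 in excitatory neurons (-0.43) and oligodendrocytes (-0.39), Dnaja1 in excitatory neurons (-0.25) and Hspa8 in microglia (-0.47). With the block Hspd1 in OPC also passed in SPF (-0.86), as did Hspa1b in oligodendrocytes, which was lower in PFC, where it was at 0 UMIs, and Hspa8 in oligodendrocytes and Hsph1 in OPC passed in CGF (0.56 each). DESeq2 called 8 in GF.

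Of Hspa8, Hspa5, Hsp90aa1, Hspd1 and Dnajb1 in excitatory neurons, all were higher in PFC in SPF, by 0.71 ± 0.20, 0.76 ± 0.17, 1.09 ± 0.14, 0.55 ± 0.14 and 1.54 ± 0.19. The Hspa8 value was lost without SPF mouse 31 (0.43). Dnaja1 went the other way in that type, at -0.29 ± 0.11 (SE, adjusted p = 0.0231), which was lost without SPF mouse 32 (-0.16), with library totals only (-0.06), after thinning (-0.25) and with the length and GC trend removed (-0.16). The test of whether the GF effect differed between the regions passed for 22 of 54 pairs, 2 higher and 20 lower in PFC. Of all 77664 pairs, 14856 were higher and 11583 lower (34.0% in either direction). The median difference of the GF effect was -0.43 over the members and 0.11 over all genes.

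In GF mice the 5 differences between PFC and Hip that passed included Hspa1a in excitatory neurons, -0.93 ± 0.28 (SE, adjusted p = 0.0163), and Hsp90ab1 in OPC, -0.63 ± 0.16 (SE, adjusted p = 0.00323), and in microglia, -0.72 ± 0.18 (SE, adjusted p = 0.00196). None of the 5 held in every alternative. The Hspa1a value was lost after thinning (-0.92) and without GF mouse 5 (-0.90) or 6 (-0.80). Both Hsp90ab1 values were lost with the length and GC trend removed (-0.30 and -0.18), without likely doublets (-0.38 and -0.40), with coarser clusters (-0.39 and -0.38) and with nuclei typed by their own markers (-0.23 and -0.50), and that in OPC also without GF mouse 7 (-0.60). The count was 3 without GF mouse 6, 2 without GF mouse 7, 8 without SPF mouse 32 and 2 when likely doublets were left out. Without each mouse in turn the SPF count lay between 23 and 28 and the CGF count between 23 and 26.

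The same groups were read in subtypes of hippocampal excitatory neurons and in vessel cells, with no test. Hspa5 in dentate granule neurons had 37.8, 35.2 and 44.7 CPM in SPF and 130.0, 86.5 and 155 CPM in GF. In CA3 pyramidal neurons it had 26.5, 21.2 and 31.5 CPM in SPF and 107, 89.0 and 112 CPM in GF. The GF mice were above the SPF mice in dentate granule and CA3 neurons. CA1 pyramidal neurons were also summed and are not described here. Hsp90ab1 in dentate granule neurons had 111, 105 and 177 CPM in SPF and 213, 235 and 214 CPM in GF. In CA3 it had 74.0, 69.8 and 119.9 and 143, 182 and 162 CPM. Endothelial cells were few, and Hspa1a there had 7.48, 0 and 5.44 CPM in SPF and 26.3, 58.3 and 222 CPM in GF in Hip, and 8.55, 0 and 0 CPM in SPF and 31.9, 42.7 and 82.0 CPM in GF in PFC. The GF mice were above the SPF mice in both regions, on 8 to 175 UMIs each. The clusters named endothelial had Rgs5, a marker of mural (vessel wall) cells, among their leading genes in both regions. Likely doublets made up 13.1% of the Hip cluster, and no mural cluster was named in Hip. Of the members only Hspa1a is given for endothelial cells, without its CGF values, and other vessel cells are not described.

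Other genes of the same pathways were counted from lists of chaperones and their partners. The lists too were chosen with earlier results of these data known, so their shares describe them only. In Hip the co-chaperones of HSP70 and HSP90 had 59 of 113 pairs higher in GF and 0 lower, against 20.2% and 17% of all pairs. The ER chaperones and unfolded protein response genes had 80 of 149 higher and 12 lower. The chaperonin CCT and prefoldin genes had 43 of 77 higher and 6 lower, and the mitochondrial chaperones and proteases 35 of 83 higher and 5 lower. The other HSP70 and HSP110 genes had 13 of 38 higher and 8 lower, the small heat shock proteins 6 of 16 and 0, the J-domain proteins 31 of 127 and 17, and the heat shock factors 6 of 24 and 0.

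Genes called in at least 3 types with 1 sign are named here, up to 2 with the highest and 2 with the lowest median over types in each list. A gene counted only in types where it passed the filter, which a low gene could do through the group where it was high. Sdf2l1, an ER partner of Hspa5, rose in all 4 types tested (median log2 fold change 2.02), and Creld2, another ER protein, rose in 4 of 4 (1.43). Their mean levels over the 9 libraries were low, at 3.13 to 8.93 CPM and 2.85 to 6.57 CPM in those types. Atf6, a sensor of the unfolded protein response, fell in 5 of 6 (-0.53), and the ER J-domain protein Dnajc10 fell in 5 of 6 (-0.59). Among mitochondrial genes Grpel1, the exchange factor of mitochondrial HSP70, rose in 6 of 6 (1.59), as did Hspe1, the lid of the Hspd1 chaperonin (1.49). Hspa9, mitochondrial HSP70 itself, rose in 3 of 6 (0.37), and the protease Htra2 in 4 of 6 (0.70). Of the co-chaperones, Ahsa1, which speeds up HSP90, rose in 6 of 6 (1.28), as did the ubiquitin ligase Stub1 (1.20) and the HSP70 partner St13 (0.50), while the HSP90 partner Ppid rose in 3 of 6 (0.47). Cryab, a small heat shock protein, rose in 6 of 6 (1.45).

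Hspa2 rose in 5 of 6 types in Hip (1.51) and Hspa4, an HSP110 relative, in 5 of 6 (0.64), while Hspa12a and Hspa4l each fell in 3 of 6 (-0.53 and -0.15). Of the J-domain proteins Dnajc9 rose in 3 of 5 types (1.05) and Dnajb2 in 4 of 5 (0.84). Dnajc13 and the clathrin uncoating factor Dnajc6 each fell in 4 of 6 (-0.56 and -0.43). The prefoldin subunits Pfdn5 and Pfdn4 rose in 6 of 6 (1.39 and 1.12), but Pfdn2 fell in 6 of 6 (-1.78). The chaperonin subunit Cct8 rose in 3 of 6 (0.42), and Hsbp1, which binds heat shock factor 1, in 6 of 6 (0.98). Dnajc6 in both neuron types, Hspa4l in excitatory neurons, Htra2 in astrocytes and Hsbp1 in microglia changed sign when the length and GC trend was removed.

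In PFC every list had calls in both directions, where 25.0% of all pairs were higher and 24.6% lower. The J-domain proteins had 23 of 119 pairs higher in GF and 39 lower, the chaperonin and prefoldin genes 23 of 75 and 29, and the co-chaperones 32 higher and 30 lower. The ER list had 51 of 135 higher and 28 lower, the mitochondrial list 32 of 76 and 13, the other HSP70 and HSP110 genes 11 of 31 and 2, the small heat shock proteins 7 of 12 and 4, and the heat shock factors 9 of 21 and 2.

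Of the genes chosen in the same way in PFC, Dnajc19, part of the mitochondrial import motor, rose in 6 of 6 types (3.61) and Grpel1 in 3 of 3 (2.34), while the matrix protease Lonp1 fell in 6 of 6 (-2.36) and Htra2 in 3 of 5 (-0.82). In the types tested, mean levels over the 9 libraries were 20.65 to 43.21 CPM for Dnajc19 and 6.74 to 12.78 CPM for Grpel1. Of the ER genes Manf rose in 6 of 6 (1.70) and Dnajb9 in 4 of 4 (1.5), while Hyou1, the ER HSP110, fell in 4 of 4 (-1.53) and the stress transcription factor Atf4 in 6 of 6 (-1.33). Cacybp and Ahsa1 rose in 6 of 6 (1.58 and 1.44), and Bag6 and the myosin chaperone Unc45a fell in 6 of 6 (-2.36 and -1.78). Cryab rose in 4 of 4 (2.35) and Hspb3 fell in 3 of 3 (-1.84).

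Dnaja2, a near relative of Dnaja1, rose in 6 of 6 types in PFC (1.22) and Dnajc1 in 4 of 6 (0.65), whereas Dnajb5 fell in 6 of 6 (-1.27) and Dnajc4 in 4 of 4 (-1.44). Hspa4 rose in 6 of 6 (0.78). The prefoldin subunit Vbp1 rose in 5 of 5 (1.39) and Cct3 in 6 of 6 (1.03), while Pfdn2 and Pfdn6 fell in 6 of 6 (-2.57 and -1.25). Hsbp1 rose in 6 of 6 (0.94). Cryab, Grpel1, Ahsa1, Hspa4 and Hsbp1 were thus higher in GF in both regions, and Pfdn2 was lower in both.

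**Figure D5:**
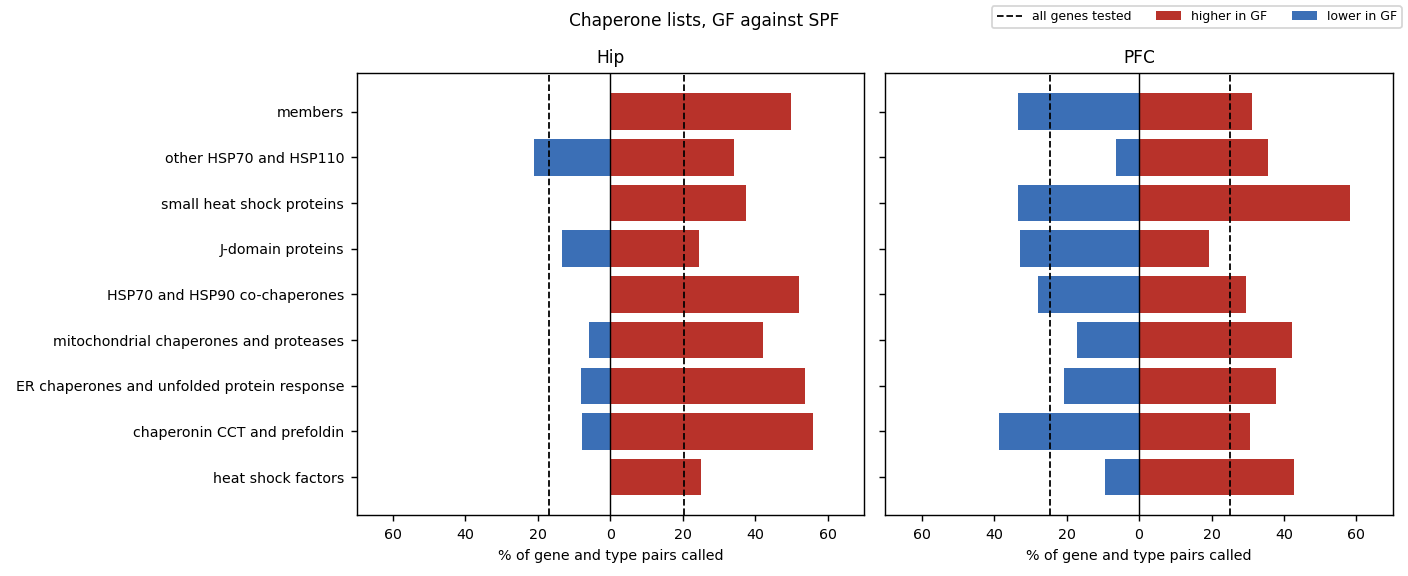
Share of pairs of gene and cell type in each chaperone list that were higher (red, to the right) or lower (blue, to the left) in GF than in SPF, in percent of the pairs tested, in Hip and PFC, with dashed lines at the shares over all genes (20.2% and 17% in Hip, 25.0% and 24.6% in PFC). The 10 members had 50.0% higher and 0 lower in Hip, and 31.3% higher and 33.3% lower in PFC.

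The genes whose levels ran most nearly with each member were found over the sums of 6 types in 18 libraries, which share libraries, depth and cell type. For Hsp90ab1 they were Tubb5 and Rpl14 (Pearson r 0.958 and 0.955), and for Hspa8 Rplp1 and Tuba4a (0.932 and 0.907). For Dnaja1 they were Tmsb4x and Mllt11 (0.926 and 0.921), for Hsp90aa1 Tuba4a (0.893), and for Hspa5 Cck and Uqcr10 (0.890 and 0.881). For Hspd1 they were Mdh2 and Tubb2a (0.842 and 0.835), for Hsph1 Set and Ctxn1 (0.796 and 0.778), and for Dnajb1 Gng3 and Mrpl12 (0.782 and 0.758). The values were lower for the inducible pair, 0.641 for Hspa1a with Fth1 and with Gde1, and 0.566 and 0.563 for Hspa1b with Arf4 and B4gat1. Among the members, Hspa8 stood at 0.882 with Hsp90aa1 and 0.846 with Hsp90ab1, while Hsp90ab1 and Dnaja1 stood at 0.109.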

How the data were processed

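Single-nucleus RNA was measured in 18 libraries, Hip and PFC of 3 GF, 3 SPF and 3 CGF mice. The authors made the deposited counts, whole-number UMI counts per gene and nucleus, by aligning reads to mm10 and counting over Ensembl genes in Cell Ranger (matrix headers give 3.1.0). The labels name CASAVA 1.8. The sources differ on the kit and on the Cell Ranger version, and whether intronic reads were counted is not given in the sources used here.

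From these counts, nuclei with at least 200 genes and at most 10% mitochondrial UMIs were kept, scaled to 10000 UMIs, and clustered per region on 2000 variable genes (the chaperones left out), 10 components and 20 neighbours by the Leiden method at resolution 1 (leidenalg 0.10.2). Genes were scaled within each library. Clusters were named from marker lists, and stayed unnamed and untested where they were mostly likely doublets, were led by markers of another type or by genes against the name, or had few UMIs per nucleus and no own marker among the leading genes (14 clusters in Hip and 9 in PFC). These settings were chosen after seeing the data. Likely doublets were the nuclei nearest to sums of 2 nuclei of the same library (0.8% per 1000 nuclei). Those within named clusters were kept, and left out in an alternative. Libraries shared 6 to 29 barcodes, at most 0.362%.

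UMIs were summed per mouse and type (at least 10 nuclei) and tested with edgeR 4.0.16 (filterByExpr, TMM, quasi-likelihood F test) under R 4.3.3, with Benjamini-Hochberg adjustment over all genes of a fit and a threshold of 0.05. Fold changes are log2, and the standard error is the fold change over the root of F, from which normal 95% intervals were taken. Groups were compared over the 9 libraries of a region, and regions over all 18 libraries. In this last model the interaction is GF against SPF in PFC minus that in Hip. Neighbouring types were compared on log2(CPM + 1) with exact sign flips. The total per library was 20336250 to 71463928 UMIs, and in the small sums of the glial types CPM below about 10 rest on few UMIs. The scripts were tested on simulated counts. Replicate libraries differed by more than sampling noise (chi-square over its degrees of freedom 9.23 to 35.1), so none was counted as a repeat.

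The number in a sample title marks the animal, so Hip and PFC of a mouse are paired. The main tests between regions and of the interaction did not use this pairing. It entered only as the mouse block, an alternative. After subtracting each group's mean, Hip and PFC values of one animal correlated at -0.021 to 0.462 over 6 types and 9 mice (median 0.128), against -0.379 to 0.158 for different animals.

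The alternatives were DESeq2 1.42.0, its size factors, library totals only, no filter, thinning, removal of the length and GC trend (99.55% of genes had both), only the libraries compared, other gating and clustering, no likely doublets, a mouse block, and each mouse left out. Named genes were all members, then per list and region up to 2 genes with the highest and 2 with the lowest median among those called in at least 3 types with 1 sign, and for each member the 2 genes with the highest correlation among those with a mean of at least 20 CPM, of which 1 is not reported here. The members and lists were chosen with earlier results of these data known. Promoters are those of RefSeq GRCm38.p6.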

Additional observations from a re-analysis of the deposited data

Results flagged for a closer look

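For the members the difference between GF and SPF was tested for a change between the regions, as the log2 fold change in PFC minus that in Hip (edgeR quasi-likelihood test, Benjamini-Hochberg adjusted over all genes of the fit). It passed for 22 of 54 pairs of gene and type, against 34.0% of all pairs tested. The pairing of the 2 regions within a mouse was not used in this test. The 22 are given here because the effect of the group differed between the regions in this test.

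The HSP90 genes showed the largest number. Hsp90ab1 differed by -2.39 in excitatory neurons, -2.34 in interneurons, -1.60 in OPC, -1.29 in microglia, -1.14 in astrocytes and -1.30 in oligodendrocytes. Hsp90aa1 differed by -1.06 in excitatory neurons and -0.86 in interneurons. All 8 of these held in every alternative and without each mouse in turn.

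Of the HSP70 genes, Hspa8 differed by -0.87 in excitatory neurons and -0.88 in interneurons, and Hspa5 by -0.97 and -0.53. Hspa1a differed by -1.78 in excitatory neurons and -2.21 in interneurons, and Hspa1b by -1.25 in excitatory neurons. Of these 7, the Hspa5 and Hspa1a differences in excitatory neurons held in every alternative and without each mouse, and the other 5 did not. The Hspa8 values were lost without SPF mouse 31 (-0.59 and -0.58), and that in excitatory neurons also without GF mouse 5 or 6 (-0.84 each). The length and GC setting brought Hspa5 in interneurons to -0.17, Hspa1a in interneurons to -1.16 and Hspa1b to -0.43. Hspa5 in interneurons was also lost without GF mouse 7 or SPF mouse 30 or 31, and Hspa1b without any one of the CGF mice, GF mouse 5 or 7 or SPF mouse 30 or 31 (-0.71 to -1.25).

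Hspd1 differed by -0.79 in excitatory neurons and -1.17 in interneurons, and Hsph1 by -0.64 in interneurons. Dnajb1 differed by -1.24 in excitatory neurons and -1.81 in interneurons. The Hsph1 value was lost without any one of the GF mice, SPF mouse 30 or 31 or CGF mouse 17 (-0.44 to -0.67). Dnaja1 differed by 0.82 in astrocytes and 1.24 in oligodendrocytes, the 2 positive values among the 22. Neither held after thinning (0.90 and 1.3), and the astrocyte value was also lost without GF mouse 5 or 7 or SPF mouse 30 or 31 and the oligodendrocyte value without SPF mouse 30 (1.03). In PFC the GF libraries held 59126586 to 71463928 UMIs and those of SPF 20336250 to 26949210, so depth and group cannot be told apart there.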

How the results depend on the processing

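Over all members, comparisons and alternatives, 9320 of 9794 values kept their side of the threshold, 322 no longer passed, 150 came to pass and 2 called values changed sign. Sign changes of values that never passed are not counted here. Of the 27 members' calls of GF against SPF in Hip 10 held in every alternative and without each mouse, and of the 31 in PFC 17. With the length and GC trend removed, 10 were higher in GF than SPF in Hip (27 before) and 21 differed between GF and CGF in Hip (39 before). The share of all pairs called with that setting is not given here. That setting also changed the sign of Hsp90ab1 in Hip astrocytes (-0.001004) and microglia (-0.16), Htra2 in astrocytes (-0.04), Hsbp1 in microglia (-0.02), Hspa4l in excitatory neurons (0.08) and Dnajc6 in excitatory neurons (0.21) and interneurons (0.38), all of GF against SPF. The cause was not tested. Without a filter on low counts 1 member was called between CGF and SPF in Hip and 1 in PFC (0 before). The count of PFC against Hip in GF (5) was 8 with DESeq2, 8 with its size factors, 9 with library totals only, 3 with the length and GC trend removed, 2 with nuclei typed by their own markers and 2 without likely doublets. In the 3 SPF mice alone 2 members had their highest PFC level in a neuron type (0 over 9 mice).

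Leaving out each mouse in turn gave 15 to 41 members higher in GF than SPF in Hip, 9 to 16 higher in PFC, and 2 to 8 for PFC against Hip in GF. The low and high ends were SPF mice 30 and 31 (15 each) and SPF mouse 32 (41) in Hip, SPF mouse 32 (9) in PFC, and GF mouse 7 (2) and SPF mouse 32 (8) for the regions. With both regions of a mouse kept as a block, PFC against Hip in GF had 9 calls, 10 member values came to pass and none was lost. Those of the interaction that came to pass were Hsph1 in excitatory neurons and in microglia. Depth limits Hspa1a, Hspa1b and Dnajb1, which were not tested in several glial types.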
